A study of Homo sapiens with 6 samples.

Results

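The genes described here are 10 steroidogenic genes of human granulosa cells, chosen by name and read by their Ensembl identifiers out of the 60671 genes quantified. They are STAR, CYP11A1, HSD3B2, CYP17A1, CYP19A1 and HSD17B1, which carry cholesterol to estradiol, FDX1 and POR, which pass electrons to the cytochromes, and NR5A1 and NR5A2, nuclear receptors that bind the promoters of the others. The cells were KGN, a human granulosa cell line, with the genotype FOXL2 WT/WT, that is, genome-edited so that both alleles of the forkhead factor FOXL2 are wt. They were transfected with 30 pmol of siRNAs, either a pool of 3 against FOXL2 (FOXL2 KD) or a control siRNA, and RNA was taken 30 h later for stranded mRNA sequencing, with 3 libraries per condition. The 3 FOXL2 pools differ from one another in 1 siRNA, and the labels name no gonadotropin or cAMP treatment in either condition. By the labels, each KD library received a different pool, so the number of a KD replicate is also that of its pool. Differences between pools and between KD libraries therefore cannot be told apart, and a fit without a KD library also lacks its pool. Whether the edited line is a single clone, and whether the libraries came from separate cultures, is not given in the sources used here, so the p-values measure the spread between these libraries.

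In the ovary, theca cells make androgens and granulosa cells convert them to estrogens. STAR lets cholesterol reach the inner mitochondrial membrane, CYP11A1 cleaves its side chain with electrons from FDX1, HSD3B2 makes progesterone, CYP17A1 makes androgens with electrons from POR, CYP19A1 (aromatase) makes estrogens, and HSD17B1 reduces estrone to estradiol. Gonadotropins switch on most of these genes through cAMP and protein kinase A, together with NR5A1 (SF-1) and NR5A2 (LRH-1). FOXL2 maintains granulosa cell identity and has been described as acting on the STAR and CYP19A1 promoters.

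The granulosa label was met in part by the markers. Of 12 granulosa markers, 6 had a TPM (a level scaled to library size and transcript length) of at least 1 in all 3 control libraries, namely FOXL2, AMH, INHBA, INHBB, FST and KRT18. FSHR, the FSH receptor, and WT1 had 0 counts in all 6 libraries, and GATA4, AMHR2, INHA and ESR2 were below 1 TPM. The summed TPM of the list was 993 to 1090 in the control libraries and 1010 to 1150 after FOXL2 KD. Most of this sum was KRT18, with a mean of 902 TPM in the control libraries and 951 TPM after KD. INHBB had a log2 fold change of 0.22 (adjusted p = 0.352 by edgeR). It was higher after KD without overlap in CPM, as 9.97% of the genes tested, and in TPM, as 9.3%. AMH, INHBA, FST and KRT18 overlapped, with log2 fold changes of -0.19, -0.15, -0.09 and 0.05 (adjusted p of 0.519 or more by edgeR). FOXL2 had a mean of 5.45 TPM in the control libraries. Of the markers of theca or Leydig cells (6 genes), INSL3 and LHCGR, the LH receptor, had 0 counts, and NR2F2 was the single one detected. That list summed to 53.6 to 69.3 TPM in the control libraries and 40.6 to 61.2 TPM after KD. Its tested genes, NR2F2 and PTCH1, had log2 fold changes of -0.31 and -0.49 (adjusted p = 0.277 and 0.394 by edgeR). In both, CPM lay lower after KD without overlap, as in 10.6% of the genes tested, while the TPM values overlapped. The part of this list in the results was not tested. The adrenal cortex list (5 genes) summed to 0 to 0.03 TPM in the control libraries and 0 to 0.05 TPM after KD. Of the Sertoli list (5 genes) SOX9 alone was detected. Its mean of 6.71 TPM in the control libraries was above that of FOXL2, but the ranges overlapped. SOX9 was at 7.62, 6.85 and 5.66 TPM and FOXL2 at 5.36, 5.28 and 5.72 TPM in these libraries. In bulk RNA, fewer cells that express a gene and less of its RNA per cell cannot be told apart.

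FOXL2 itself was measured first as a check of the KD. Its level was 9.88, 9.71 and 10.8 CPM (counts scaled to library size, with TMM normalization) in the control libraries and 2.64, 3.31 and 2.36 CPM after KD. All KD libraries lay below all control libraries, and the quasi-likelihood test of edgeR gave a log2 fold change of -1.88 ± 0.142 (standard error, SE) with a Benjamini-Hochberg adjusted p = 0.00267. The total expected counts were 23843192 to 28791954 per library. FOXL2 KD replicate 2 stood apart on the first principal component (31.2% of the variance). Whether its siRNA pool set it apart was not tested.

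Of the 10 steroidogenic genes, 6 had enough counts to be tested and none of these passed the threshold. The 4 that could not be tested were CYP11A1, HSD3B2, CYP17A1 and CYP19A1, which are the side-chain cleavage, progesterone, androgen and estrogen steps. With an adjusted p below 0.05 as the threshold, edgeR called 0 of the 6 and 0.255% of the 15663 genes tested. Without FOXL2 KD replicate 2 it called 0 of the 6 and 3.61% of the genes tested. DESeq2 gave an adjusted p to 4 of the members (NR5A1, POR, STAR and FDX1) and called 0 of them, against 3% of the genes to which it gave one. Before adjustment, 0 of the 6 had a p below 0.05, against 13.5% of the genes tested. The fitted log2 fold changes of the 6 were all above 0, as were those of 51.4% of the genes tested, and their median was 0.11 against 0.01 over all genes tested. Their median size, 0.11, was close to the 0.12 over all genes tested, and in 0 of the 6 did the CPM values of the conditions separate, against 20.5% of the genes tested.

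The members fell into a well expressed and a barely detected part. In the control libraries the mean TPM was 34.9 ± 0.399 (SD, n = 3) for NR5A1, 27.7 ± 1.26 (SD, n = 3) for POR, 15.3 ± 1.45 (SD, n = 3) for STAR and 11.1 ± 0.488 (SD, n = 3) for FDX1. HSD17B1 was at 1.02 ± 0.490 TPM, NR5A2 at 0.227 ± 0.0503 TPM and CYP11A1 at 0.147 ± 0.0416 TPM (SD, n = 3 each). HSD3B2 and CYP19A1 were each above 0 in 1 control library, and CYP17A1 was above 0 in none. Over the 3 control libraries, neighbours in this order did not overlap from NR5A1 down to NR5A2. From NR5A2 down, the ranges of direct neighbours overlapped, so NR5A2 and CYP11A1, CYP11A1 and HSD3B2, HSD3B2 and CYP19A1, and CYP19A1 and CYP17A1 did not differ beyond their spread. By level, NR5A1 stood at percentile 72.7 of the genes tested, POR at 67.6, STAR at 54.2, FDX1 at 47.3 and HSD17B1 at 12.8. The order was the same when CPM per kilobase of effective length was used in place of TPM. In both conditions the same number of members, 4 of 10, had a TPM of at least 1 in all 3 libraries, and these were NR5A1, POR, STAR and FDX1.

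**Figure D1:**
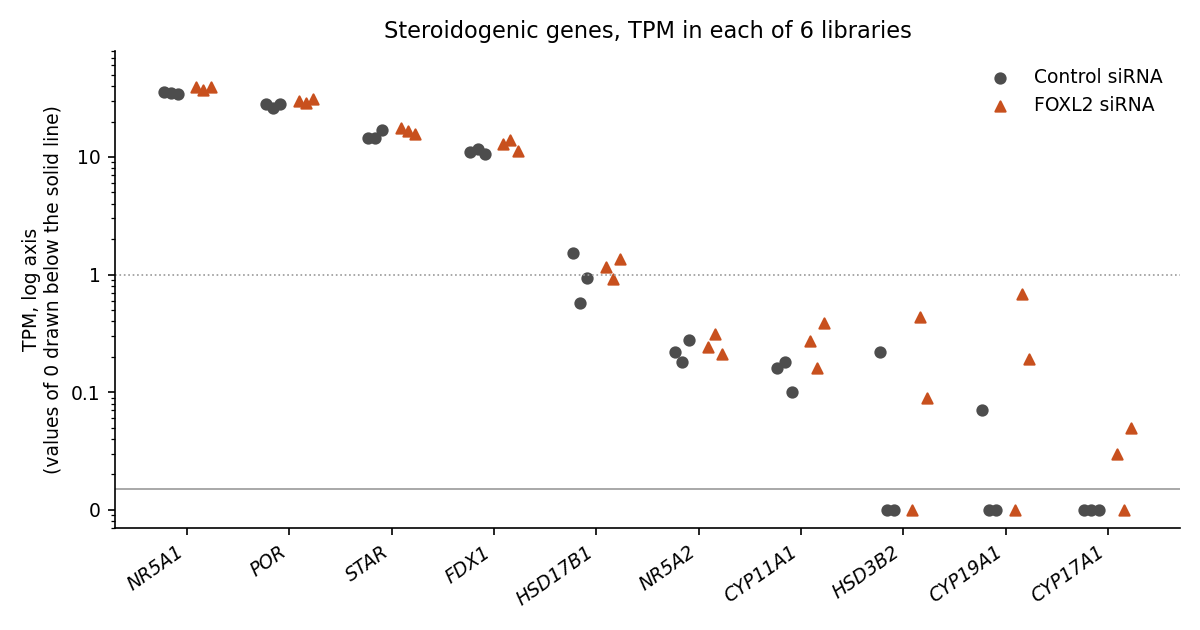
TPM of the 10 steroidogenic genes on a log axis in each of the 3 control siRNA libraries (circles) and the 3 FOXL2 siRNA libraries (triangles), ordered by the control mean, with values of 0 drawn below the solid line and a dotted line at 1 TPM. NR5A1, POR, STAR and FDX1 lie above 10 TPM in all 6 libraries, HSD17B1 lies on both sides of 1 TPM, and the other 5 genes lie below 1 TPM in all 6.

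STAR (ENSG00000147465) supplies the rate-limiting delivery of cholesterol to the mitochondrion and was expressed at a middle level without a change that the test could call. It lies on the minus strand of chromosome 8 (GRCh38, 38143649 to 38151265). Its rounded expected counts were 491, 535 and 566 in the control libraries and 624, 482 and 607 after FOXL2 KD. Normalized, they were 19.6, 21.8 and 21.1 CPM in the control libraries and 22.8, 19.9 and 21.1 CPM after KD. The conditions overlapped, with KD replicate 1 the highest of the 6 libraries and control replicate 1 the lowest. The log2 fold change was 0.03 ± 0.0860 (SE, adjusted p = 0.911 by edgeR), and its 95% interval ran from a change of -10.8% to one of 16.9%. Changes inside that interval remain possible, and its ends are not the smallest change that the test would call. In TPM, STAR was at 14.4, 14.6 and 17.0 in the control libraries and at 17.6, 16.7 and 15.5 after KD, which also overlapped. The sign of the fold change did not hold across libraries. It was -0.02 without FOXL2 KD replicate 1, -0.01 without control replicate 1 and up to 0.07 without KD replicate 2, and 0.11 with effective lengths as offsets in edgeR.

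The electron donors FDX1 and POR were likewise expressed and not called. FDX1 (ENSG00000137714), the mitochondrial ferredoxin that serves CYP11A1, lies on the plus strand of chromosome 11 (110429883 to 110464881). It was at 22.0, 23.1 and 21.8 CPM in the control libraries and at 26.1, 26.4 and 22.6 CPM after KD. KD replicates 1 and 2 were above all control libraries, and KD replicate 3 lay within their range. FDX1 was the member whose interval came nearest to leaving 0 out. Its log2 fold change was 0.17 ± 0.0860 (SE, adjusted p = 0.431 by edgeR, exact permutation test p = 0.2, two-sided), with an interval from -1.99% to 28.4%. Leaving out single libraries gave log2 fold changes of 0.12 to 0.23, and each had an adjusted p of 0.241 or more by edgeR. A 75-base read could also come from the pseudogene FDX1P1 at 1.12% of the positions along the FDX1 transcript.

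POR (ENSG00000127948), the microsomal reductase that serves CYP17A1, CYP19A1 and drug-metabolising cytochromes, lies on the plus strand of chromosome 7 (75899200 to 75986855). Its level was 34.3, 34.0 and 36.4 CPM in the control libraries and 36.6, 35.7 and 36.3 CPM after KD. Control replicate 3 fell inside the range of the KD libraries, and the other two control libraries lay below it. The log2 fold change was 0.05 ± 0.0662 (SE, adjusted p = 0.771 by edgeR), with an interval from -6.54% to 15.0%. This was the narrowest interval among the members.

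NR5A1 (ENSG00000136931), the steroidogenic factor whose loss abolishes gonad and adrenal formation, was the member with the highest level. It lies on the minus strand of chromosome 9 (124481236 to 124507430). Its rounded expected counts were 1560, 1505 and 1719 in the control libraries and 1836, 1425 and 1932 after KD, and the normalized values were 62.2, 61.4 and 64.1 CPM against 67.2, 58.9 and 67.0 CPM. KD replicates 1 and 3 were the highest of the 6 libraries and KD replicate 2 was the lowest. The log2 fold change was 0.04 ± 0.0714 (SE, adjusted p = 0.838 by edgeR), and the interval ran from -8.00% to 15.1%. Without KD replicate 2 the log2 fold change was 0.10 (adjusted p = 0.432 by edgeR).

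**Figure D2:**
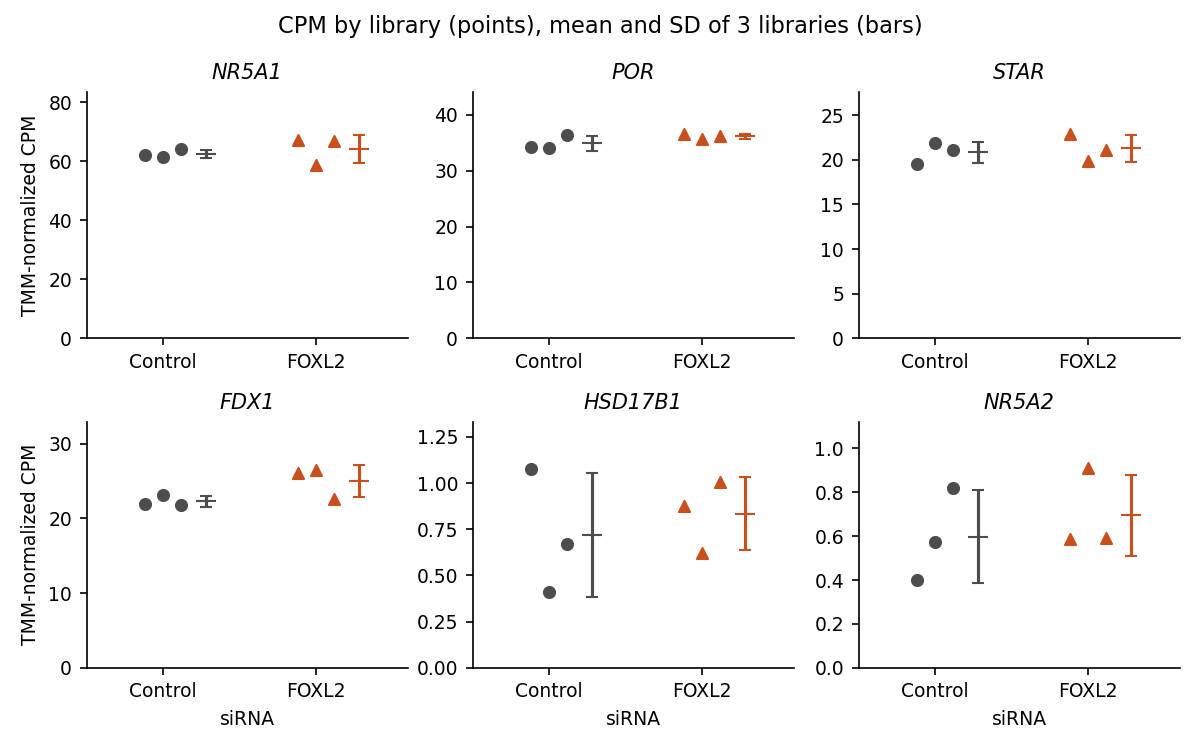
TMM-normalized CPM of the 6 tested members in the 3 control siRNA libraries (circles) and the 3 FOXL2 siRNA libraries (triangles), with the mean and SD of 3 libraries beside them and each y axis starting at 0. The conditions overlap in all 6 panels, and the SDs of HSD17B1 and NR5A2 are wide relative to their means.

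On the TPM scale NR5A1 and POR looked different. NR5A1 was at 35.3, 34.7 and 34.6 TPM in the control libraries and at 39.2, 36.9 and 39.0 TPM after KD, and POR was at 28.3, 26.2 and 28.5 TPM against 30.1, 28.7 and 31.0 TPM. For both genes every KD library lay above every control library, with means at 110% and 108% of the control mean (exact permutation test, two-sided p = 0.1 each, the smallest that 3 libraries against 3 allow). Among the genes tested, TPM values separated in this direction in 9.3% and in the other in 9.07%, against 2 and 0 of the 6 members. TPM divides the counts by the effective length, the transcript length available to reads averaged over the isoforms that RSEM estimated in that library. It then scales every library to the same total, while CPM used TMM factors and no length, so the scales differ in both steps. The share of each step in the separation was not tested. The effective length of NR5A1 was 2614, 2637 and 2692 nucleotides in the control libraries and 2509, 2516 and 2547 after KD, so it was shorter in every KD library. Such a separation towards shorter lengths occurred in 2.43% of the genes tested. For POR the lengths overlapped, at 1802, 1934 and 1856 nucleotides in the control libraries and 1781, 1964 and 1738 after KD. Against control replicate 3, KD replicate 2 had a lower POR CPM (35.7 against 36.4) and a longer length, yet a higher TPM (28.7 against 28.5). Neither gene passed a test that takes the length into account. With effective lengths as offsets in edgeR the log2 fold change was 0.14 for NR5A1 (adjusted p = 0.443) and 0.11 for POR (adjusted p = 0.612), and limma on log2(TPM + 1) gave 0.13 (adjusted p = 0.402) and 0.11 (adjusted p = 0.541). HSD17B1 was the other member whose lengths separated, and they were longer after KD, at 1033, 1091 and 1065 nucleotides against 1105, 1098 and 1102, as in 7.54% of the genes tested. Lengths separated in either direction in 9.97% of the genes tested and in 2 of the 6 members. The summed TPM of the 10 members, most of which is NR5A1 and POR, was 88.1 to 92.0 in the control libraries and 98.8 to 101 after KD.

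**Figure D3:**
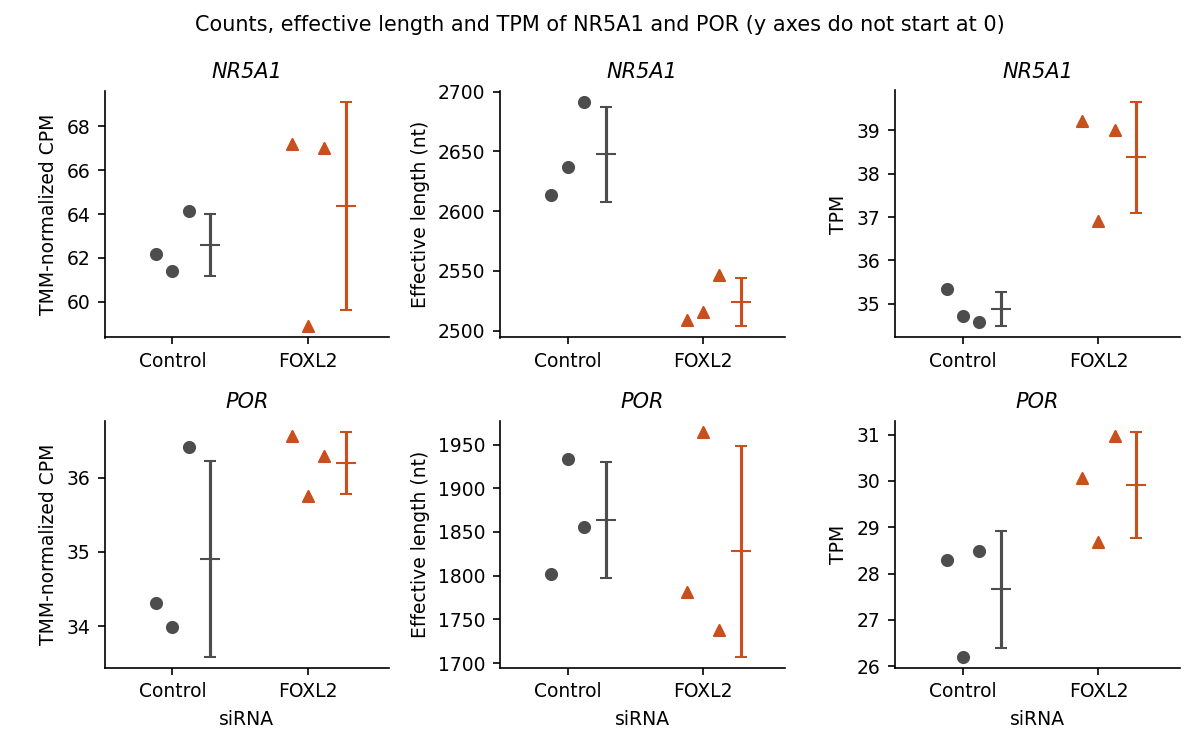
CPM, RSEM effective length in nucleotides (nt) and TPM of NR5A1 (top) and POR (bottom) in the 3 control siRNA libraries (circles) and the 3 FOXL2 siRNA libraries (triangles), with mean and SD; the y axes do not start at 0. The TPM of both genes separates between the conditions while CPM overlaps, and the effective length separates for NR5A1 only.

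HSD17B1 and NR5A2 were tested on few counts, and their intervals were wide. HSD17B1 (ENSG00000108786, chromosome 17, plus strand, 42549214 to 42555213) had 27, 10 and 18 counts in the control libraries and 24, 15 and 29 after KD. The control libraries held both the highest CPM (1.08 in replicate 1) and the lowest (0.408 in replicate 2). Its log2 fold change was 0.23 ± 0.363 (SE, adjusted p = 0.823 by edgeR), with an interval from -33.6% to 107%. Changes inside it remain possible. The value was -0.04 without control replicate 2, 0.63 without control replicate 1, 0.07 without KD replicate 3, 0.38 without KD replicate 2, and -0.04 when the counts were summed with those of HSD17B1P1. That pseudogene, with 10, 9 and 4 counts in the control libraries and 5, 4 and 3 after KD, shares 0.902% of the 75-base positions. HSD17B1 also overlaps the antisense gene HSD17B1-AS1, which had 60, 48 and 49 counts in the control libraries and 59, 40 and 71 after KD. The library kit keeps strand, but the strand setting of the counting is not given in the sources used here.

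NR5A2 (ENSG00000116833, chromosome 1, plus strand, 200027602 to 200177424), the relative of NR5A1 that drives ovulation and luteal function in granulosa cells, had 10, 14 and 22 counts in the control libraries and 16, 22 and 17 after KD. The KD values lay within or just above the control range. The log2 fold change was 0.19 ± 0.349 (SE, adjusted p = 0.854 by edgeR), with an interval from -34.1% to 96.6%, and it was -0.04 without KD replicate 2 and -0.03 without control replicate 1. Per length, NR5A1 exceeded NR5A2 in every library, with 34.6 to 35.3 TPM against 0.18 to 0.28 TPM in the control libraries.

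**Figure D4:**
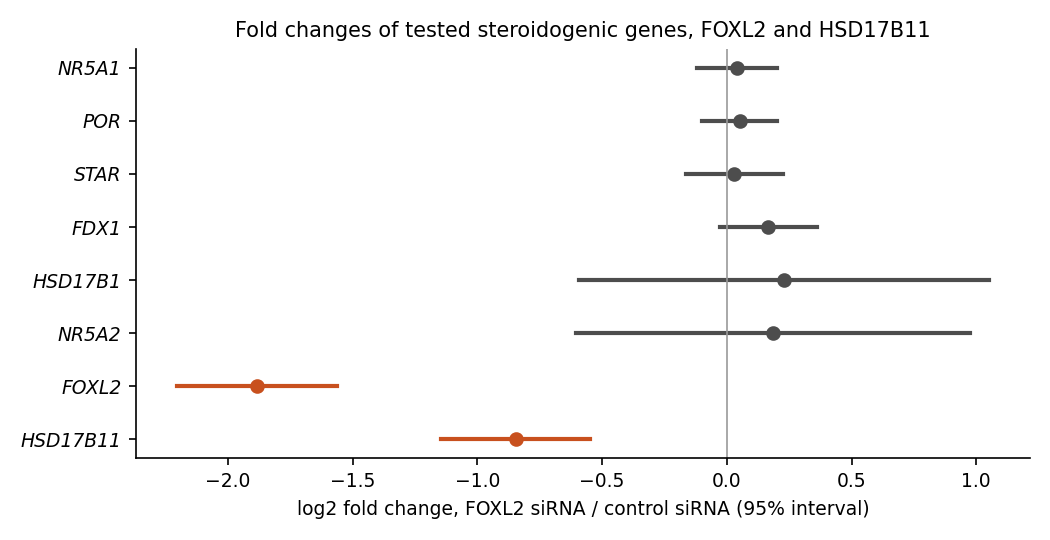
log2 fold change after FOXL2 siRNA relative to control siRNA (points) with its 95% interval (bars) from edgeR for the 6 tested members (grey), FOXL2 and HSD17B11 (orange). The intervals of the 6 members include 0, those of NR5A1, POR, STAR and FDX1 lie within -0.5 and 0.5, and those of FOXL2 and HSD17B11 lie below 0.

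For 4 of the 6 members, NR5A1, POR, STAR and FDX1, the whole interval lay between -0.5 and 0.5 on the log2 scale, as it did for 62.2% of the genes tested. By the root mean square difference of centred log2 CPM over the 6 libraries, the genes whose pattern was most like that of HSD17B1 were LINC01391 (0.0868), GABPAP (0.106) and ARMC10P1 (0.107). For NR5A2 they were MIF-AS1 (0.0566), NXF3 (0.0697) and PTPRB (0.0707). The spread of the members themselves on that scale was 0.274 for HSD17B1 and 0.213 for NR5A2. With 6 libraries and so few counts, such likeness is a description of these libraries.

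The cytochromes and HSD3B2 were at or near the limit of detection. CYP11A1 (ENSG00000140459, chromosome 15, minus strand, 74337759 to 74367740) had 4, 3 and 3 counts in the control libraries and 6, 4 and 6 after KD. After normalization every KD library was above every control library, by a narrow margin between control replicate 1 (0.159 CPM) and KD replicate 2 (0.165 CPM), while in TPM the conditions overlapped. CPM values separated upwards in 9.97% of the genes tested, a set that leaves out CYP11A1 for its few counts. The 16 counts after KD against 10 with the control siRNA gave a ratio of 1.52 with a counting interval of 0.649 to 3.75. In the fit without a filter on low counts its adjusted p was 0.693 by edgeR.

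CYP19A1 (ENSG00000137869, chromosome 15, minus strand, 51208057 to 51338610), the aromatase that marks estrogen-producing granulosa cells, had 1, 0 and 0 counts in the control libraries and 0, 3 and 2 after KD. The ratio of 5 counts to 1 was 4.75 after scaling to library size, with a counting interval of 0.532 to 225, and the unfiltered fit gave an adjusted p of 0.693 by edgeR. HSD3B2 (ENSG00000203859, chromosome 1, plus strand, 119414931 to 119423035) had 2 counts in all with the control siRNA and 3 after KD. CYP17A1 (ENSG00000148795, chromosome 10, minus strand, 102830531 to 102837533), which makes androgens and is a theca rather than a granulosa enzyme, had 0 and 2. No fold is given for these, since 3 counts over a condition, the number that a count of 0 allows, correspond to 0.0393 CPM with the control siRNA and 0.0373 CPM after KD. HSD3B1, the placental form that shares 1.24% of the 75-base positions of HSD3B2, had 0 counts in all 6 libraries. These intervals and limits cover counting error only.

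Since NR5A factors, forkhead factors and cAMP are known to act on promoters of these genes, short words for them were sought on both strands in RefSeq promoter windows of GRCh38.p14, from 250 bases before to 50 after each start. The words were AGGTCA and its longer form AAGGTCA (NR5A half-sites), TAAACA (forkhead), TGACGTCA (cAMP response) and TGATAA, a word bound by GATA4 and GATA6. Windows were at hand for 7 members, with 14 windows in all, and AAGGTCA contains AGGTCA, so these overlap. AGGTCA was in 5 of the 14 (13.8% of all 35116 windows), AAGGTCA in 1 (3.92%), TAAACA in 2 (12.3%), TGACGTCA in 0 (1.85%) and TGATAA in 5 (7.53%). These are not 14 separate promoters, since 7 of the windows belong to CYP19A1 and 2 of those overlap. The stretches of 30 bases that follow are shown because they place such words upstream of 2 undetected cytochromes and of NR5A2, with the word in capitals. The CYP19A1 half-site lies at chr15:51243143-51243172 (minus strand), its forkhead word at chr15:51243321-51243350 (minus strand), the CYP17A1 word at chr10:102837612-102837641 (minus strand, the half-site in reverse) and the NR5A2 forkhead word at chr1:200042475-200042504 (plus strand).
CYP19A1 half-site: tgagactctaccAAGGTCAgaaatgctgca
CYP19A1 forkhead: aagaagattgccTAAACAaaacctgctgat
CYP17A1 half-site: agggtgatcaacTGACCTcccttacctagc
NR5A2 forkhead: tttcctttttggTAAACAaatcagaggaaa
A match is a description of these letters and not evidence of binding. AGGTCA was held by windows of CYP19A1, CYP17A1, NR5A2 and FDX1, which are barely detected members and 1 well expressed one. The windows of CYP11A1, HSD3B2 and the well expressed NR5A1 lacked it, and none was at hand for STAR, POR and HSD17B1. A relation to the level was not tested.

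The rest of the pathway was read from 6 lists that hold 94 other genes, of which 65 were tested. edgeR called 1 of the 65 lower and 0 higher, where it called 0.147% of all genes lower and 0.109% higher. DESeq2 called 2 lower and 0 higher, and in either direction 3% of all genes to which it gave an adjusted p. Some of the 65, among them NR4A2, PDE4D and ESR1, had no adjusted p from DESeq2. Before adjustment 8 of the 65 and 13.5% of all genes tested had a p below 0.05, and the median log2 fold change was -0.01.

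The called gene was HSD17B11 (ENSG00000198189), a lipid droplet enzyme that oxidises the androgen metabolite androstanediol, from the list of other steroid enzymes (34 genes, 16 tested). It was at 26.0, 26.2 and 22.9 CPM in the control libraries and at 11.9, 17.0 and 13.01 CPM after KD. All KD libraries lay below all control libraries, with KD replicate 2 the least reduced. HSD17B11 fell with a log2 fold change of -0.85 ± 0.132 (SE, adjusted p = 0.0489 by edgeR and 4.37e-06 by DESeq2), and its TPM fell likewise, from 33.9, 32.1 and 28.8 to 14.7, 21.4 and 16.2. The edgeR call stood close to the threshold. It had an adjusted p of 0.00137 without KD replicate 2, and it was lost when any one of the other libraries was left out (adjusted p between 0.0564 and 0.298 by edgeR), with log2 fold changes of -0.91 to -0.74 in those fits. The enzyme with the next largest change, HSD17B12, which reduces fatty acid intermediates as well as estrone, had a log2 fold change of 0.34 (adjusted p = 0.357 by edgeR), and its CPM after KD was 43.7, 61.9 and 40.3 against 39.9, 36.1 and 39.0. The value was 0.13 without KD replicate 2, the highest library, and 0.13 with effective lengths as offsets in edgeR, and the TPM values overlapped. Of the 34 enzymes, 6 had 0 counts in all libraries, among them HSD3B1 and CYP11B2.

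Among the regulators (22 genes, 15 tested) edgeR called 0. Before adjustment 6 of the 15 had a p below 0.05 by edgeR, a larger share than the 13.5% of all genes tested. DESeq2 called NCOA2, a coactivator of nuclear receptors, lower (log2 fold change -0.46, adjusted p = 0.00931). It was at 28.8, 27.6 and 26.5 CPM in the control libraries and at 18.9, 22.9 and 18.6 CPM after KD, without overlap, and edgeR gave an adjusted p of 0.108. With effective lengths as offsets in edgeR, NCOA2 was called at a log2 fold change of -0.76 (adjusted p = 0.0392), and without KD replicate 2 at -0.56 (adjusted p = 0.00625). The NR4A receptors, which gonadotropins induce and which bind the CYP17A1 and HSD3B2 promoters, had the largest fold changes of the list. NR4A1 was at 2.79, 3.18 and 3.25 CPM in the control libraries and at 5.20, 3.31 and 4.34 CPM after KD, and NR4A2 was at 0.917, 0.449 and 0.634 CPM against 1.10, 1.12 and 1.01 CPM. Both separated between the conditions in CPM, as 9.97% of the genes tested did in this direction, and neither passed the test (adjusted p = 0.317 and 0.349 by edgeR). In TPM NR4A1 separated as well, while NR4A2, with 11 to 30 counts per library, overlapped. CPM separated in 6 of the 15 tested regulators, 4 higher and 2 lower, against 20.5% of the genes tested. NR0B1, which represses NR5A1 activity, had 0 counts in all libraries, and GATA4 had 1 count in all.

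The remaining 4 lists held no call by edgeR or DESeq2. Of the electron transfer partners (5 genes, all tested), FDXR, the reductase that feeds FDX1, was at 17.2, 14.01 and 17.4 TPM in the control libraries and 17.5, 16.6 and 15.4 TPM after KD. CYB5A, which aids the lyase reaction of CYP17A1, had a log2 fold change of -0.26 (adjusted p = 0.645 by edgeR) and CYB5B, its mitochondrial relative, one of 0.13 (adjusted p = 0.442 by edgeR). The CYB5B value was 0.02 with effective lengths as offsets in edgeR and 0.07 without KD replicate 2. In the cholesterol delivery list (10 genes, 9 tested) the largest values were 0.25 for STARD4 and -0.21 for STARD5, cytosolic lipid carriers related to STAR, with adjusted p = 0.450 and 0.523 by edgeR. The STARD4 value was below 0 in every fit that used the effective length, for example -0.07 with offsets in edgeR, and 0.08 without KD replicate 2. In the gonadotropin and protein kinase A list (16 genes, 14 tested) the cAMP phosphodiesterases PDE4D and PDE4B had log2 fold changes of 0.83 and 0.37 (adjusted p = 0.382 and 0.372 by edgeR). The PDE4D value rested on few counts, 4, 10 and 10 in the control libraries and 14, 15 and 16 after KD. FSHR and LHCGR, which start the cascade, had no counts. Of the steroid receptors (7 genes, 6 tested), ESR1 had a log2 fold change of 0.70 (adjusted p = 0.434 by edgeR) and NR3C2 one of 0.36 (adjusted p = 0.643 by edgeR), which was 0.95 with effective-length offsets in edgeR. ESR1 too had few counts, 9, 15 and 17 in the control libraries and 26, 28 and 16 after KD. The medians of the lists lay between -0.03 and 0.14.

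**Figure D5:**
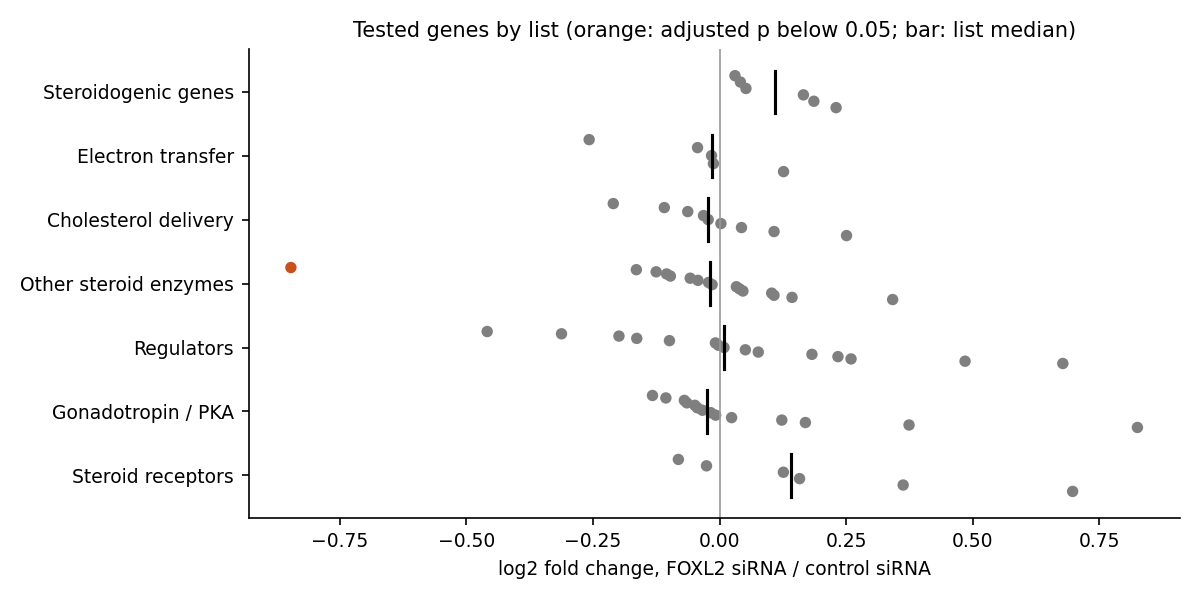
log2 fold change after FOXL2 siRNA relative to control siRNA for each tested gene of the 10 steroidogenic genes and the 6 pathway lists, with a bar at each median; orange marks an adjusted p below 0.05 by edgeR. HSD17B11, at -0.85, is the single orange point, and the 6 tested members lie between 0.03 and 0.23.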

How the data were processed

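RNA of KGN cells was sequenced by the authors as 6 stranded mRNA libraries. The submitters' notes name STAR 2.7.6a, Picard 2.8.1, RSEM 1.3.1 and DESeq2 1.26.0, and the mouse build GRCm38, although the identifiers are human and the members' transcripts are those of GENCODE v29 on GRCh38, which was used for coordinates. The authors deposited RSEM's expected counts, which are estimated counts and not normalized, TPM values scaled to library and transcript length, and effective lengths estimated in each library. Gene symbols came from a table that matched 60401 of 60671 identifiers.

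Expected counts were rounded, filtered with filterByExpr (15663 genes), normalized by TMM and tested with edgeR 4.0.16 (quasi-likelihood, Benjamini-Hochberg threshold 0.05) in R 4.3.3. Single values were compared by exact permutation tests. Alternatives were DESeq2 1.42.0, limma 3.58.1 (voom and log2(TPM + 1)), effective-length offsets, DESeq2 size factors, other filters (none, or a mean of at least 50 counts), a replicate block, counts summed with related genes and each library left out. The test was tested on simulated data. The members and lists were chosen with earlier results of these data known. Genes named in the lists were those called by edgeR or DESeq2 and the 2 with the largest log2 fold change, besides genes of known role given by their counts or TPM and chosen after their values were seen. The genes most like a member were sought for the 2 members with the largest log2 fold change.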

Additional observations from a re-analysis of the deposited data

How the results depend on the processing

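None of the members fitted was called in any of the fits, which were the 10 changes of test, normalization, filter, length, block or summing and the 6 fits without 1 library each. The signs of 3 members were not stable. With single libraries left out, the log2 fold change ranged from -0.0239 to 0.0696 for STAR, from -0.0406 to 0.627 for HSD17B1 and from -0.0388 to 0.496 for NR5A2, and summing HSD17B1 with HSD17B1P1 gave -0.0382. Over all alternatives NR5A1 stayed between 0.01 and 0.14, POR between 0.03 and 0.11, FDX1 between 0.12 and 0.23 and FOXL2 between -2.03 and -1.36. The -1.36 came from limma on log2(TPM + 1), and the other fits gave -2.03 to -1.78 for FOXL2.

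The number of other pathway genes called was 1 in edgeR, 2 in DESeq2, 2 with effective-length offsets in either tool, 0 with DESeq2 size factors in edgeR, 0 with limma on log2(TPM + 1), and 0 to 3 with a library left out, the 3 (HSD17B11, NCOA2 and NR2F2) without FOXL2 KD replicate 2. STARD4 turned to -0.0724 and -0.0669 with offsets in DESeq2 and edgeR and to -0.0626 with limma on TPM, and NR3C2 ranged from -0.00459 (without FOXL2 KD replicate 2) to 0.540 with single libraries left out and up to 1.01 with offsets in DESeq2. HSD17B12 fell to between 0.125 and 0.128, CYB5B to between 0.00987 and 0.0169, STARD5 to between -0.081 and -0.057 and PDE4B to between 0.12 and 0.205 in the fits that used the effective length. Same-numbered libraries did not deviate together (correlations -0.0301, 0.0473 and 0.0478). With 3 libraries per condition this cannot settle whether they were handled as pairs. With the replicate block edgeR called 0 of the pathway genes (HSD17B11 had an adjusted p of 0.0892) and 0 members. The cause of these moves was not tested. Counts of at most 29 per library limit HSD17B1 and NR5A2, and counts of at most 6 the cytochromes and HSD3B2.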
